A study of Mus musculus with 45 samples.

Results

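Interleukin-1 family and inflammasome transcripts were followed through RNA-seq libraries of mouse microglia and brain tissue. The 10 genes were chosen by name: the cytokines Il1a, Il1b and Il18, the antagonists Il1rn and Il18bp, the sensor Nlrp3, the adaptor Pycard, the caspases Casp1 and Casp4, and the pore-forming protein Gsdmd. All 10 were present in each of the 3 count tables, which list 55450, 47643 and 43411 genes for slice microglia, adult microglia and brain tissue. The 45 libraries came from C57BL/6 mice. Slice microglia were sorted as live CD11b high, CD45 intermediate cells from organotypic brain slices of newborn pups after 2 weeks in culture. The slices had been kept in medium (9 libraries) or given TNF at 50 ng/mL (11 libraries) or GM-CSF at 20 ng/mL (9 libraries) for 24 h, and each library pooled the cells of several slices. The slice libraries came from several independent experiments, and their titles carry the codes 1A, 1B, 2A and 2B, each found in all 3 slice groups. The labels do not say whether the codes mark the experiments. Adult microglia were sorted through the same gate from mice aged 10 to 15 weeks, 24 h after PBS or LPS at 1 mg/kg (4 libraries each). Brain tissue, which was not sorted, came from mice of the same age range that were untreated or had received LPS at 1 mg/kg 24 h earlier (4 libraries each). The tissue controls were therefore untreated and the microglia controls received PBS. The labels name no transgene or deletion in any group.

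As background, interleukin-1 signaling is controlled in steps. NF-κB-driven transcription, called priming, raises the cytokine precursors and some inflammasome parts. An inflammasome, built from a sensor such as NLRP3 and the adaptor ASC (Pycard), then activates caspase-1, which cleaves pro-IL-1β, pro-IL-18 and gasdermin D. Cleaved gasdermin D forms pores through which the mature cytokines leave the cell. Caspase-4 in mice, often called caspase-11, senses LPS inside the cell. IL-1α is active without this cleavage. The receptor antagonist encoded by Il1rn occupies the IL-1 receptor without signaling, and Il18bp encodes a secreted protein that binds IL-18. Only transcript levels were measured, and neither cleavage nor secretion can be read from these libraries.

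The slice libraries held between 5973364 and 9165485 counts each. Adult microglia held 11391564 to 14216005 counts per library, and brain tissue libraries 8199863 to 10368578. No pair of libraries within a group was identical. Levels are given as CPM, counts scaled to library size with TMM factors within a table. The summed level of 6 microglial markers was 15900 to 23100 CPM in medium, 8330 to 11400 with TNF and 11200 to 13000 with GM-CSF. It was 50700 to 56800 CPM in PBS and 35600 to 39800 in LPS adult microglia, against 260 to 298 in untreated and 226 to 368 in LPS brain tissue. In these bulk samples fewer cells of a type and less RNA per cell cannot be told apart. The second LPS library of adult microglia held the lowest level of the 4 LPS libraries for 8 of the 10 genes, and its values are given with the results below.

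On the GRCm38 annotation Il1a and Il1b lie on the minus strand of chromosome 2, 54597 bases apart, at chr2:129299610-129309972 and chr2:129364570-129371139. Il1rn lies on the plus strand of the same chromosome at chr2:24336853-24351494. Casp1 and Casp4 are neighbours on the plus strand of chromosome 9, 1562 bases apart, at chr9:5298517-5307265 and chr9:5308828-5336783. Il18 (chr9:50554827-50581840, plus strand) is on chromosome 9 too. Il18bp (chr7:102014885-102018690) and Pycard (chr7:127989708-127993867) are on the minus strand of chromosome 7, Nlrp3 (chr11:59541568-59566956) is on the plus strand of chromosome 11, and Gsdmd (chr15:75862327-75867408) is on the plus strand of chromosome 15. All are protein-coding genes. Opposite-strand genes share 12.8% of the exon bases of Pycard, 11.2% of Il1a, 2.64% of Il18bp and 1.31% of Il1b. Whether reads were counted by strand is not given in the sources used here, so reads of those partners cannot be told apart from reads of the 4 genes.

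The start regions of the 10 genes were read for NF-κB letters. What drives their transcription was not tested. RefSeq windows on GRCm38.p6, reaching from 250 bases before to 50 bases after a transcript start, were found for 9 of the 10 genes, with 13 windows in all. The letters GGGNNTTCC and GGGNNNTTCC were searched on both strands. The 2 forms overlap where another G precedes the shorter one. Of all 32851 windows, 5.82% held the shorter form, 5.56% the longer and 9.74% either. An interferon response form, GAAANNGAAA, was held by 3.44% of windows and by none of the 13. The κB letters were found at Il1rn, Nlrp3 and Casp4. Only these genes had more than a single window, so more bases were searched for them. The shares above are per window and cannot be set against a count of genes. The stretches are shown 5′ to 3′ on the plus strand, which is the strand of each of these genes, with the matched letters in capitals.
Casp4, the 120 bases before the start, chr9:5308729-5308848: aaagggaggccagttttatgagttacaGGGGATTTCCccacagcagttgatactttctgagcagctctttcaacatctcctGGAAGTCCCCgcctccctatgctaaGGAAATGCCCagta
Il1rn, before the downstream start, chr2:24345310-24345339: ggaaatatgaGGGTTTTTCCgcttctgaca
Il1rn, across the upstream start, chr2:24336846-24336875: tgggaaggagGGGCAGTTCCaccctgggaa
Nlrp3, before the downstream start, chr11:59542582-59542611: caagaaaccaGGGCTTTCCattaaaagaaa
Nlrp3, before the upstream start, chr11:59541374-59541403: gcttctgcagGGAACCCCCgggaattctgg
Casp4 carried 3 separate matches in its 120 bases, at 93, 39 and 14 bases before the start, the last 2 read from the minus strand. The start used is the RefSeq one at 5308849, and a second RefSeq start lies 11 bases further on. The gene span given above begins at 5308828, so the match nearest the start lies inside that span. No match lay in the windows of Il1a, Il1b, Il18, Il18bp, Pycard and Casp1. The Il1rn letters shown before the downstream start also lie 29 to 38 bases after another Il1rn start. A match is a description of letters and not a bound site.

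Levels were set side by side per kilobase of merged exon, so that genes of unequal length could be ranked. Merged exons join those of all annotated transcripts of a gene, 3800 bases for Pycard, so the order depends on the annotation. By mean CPM alone Pycard led in PBS adult microglia, at 261.7 against 192.6 for Gsdmd and 140.6 for Il1a. In PBS adult microglia Gsdmd was highest at 81 ± 2.75 CPM per kb (SD, n = 4), followed by Il1a at 71.2 ± 8.36 and Pycard at 68.9 ± 2.56, and the ranges of these neighbours overlapped. Casp1 (33.4 ± 1.79), Il18 (26.5 ± 2.91), Nlrp3 (19.4 ± 1.48) and Casp4 (4.06 ± 0.5) followed in that order with no overlap between neighbours. Il1b stood at 1.87 ± 0.458, Il18bp at 0.779 ± 0.0757 and Il1rn at 0.036 ± 0.0283 CPM per kb. Gsdmd, Il1a and Pycard were thus the highest of the 10 in PBS adult microglia, and Il1b and both antagonists were the lowest. In medium-treated slice microglia Pycard (37.2 ± 4.66, n = 9), Gsdmd (35.7 ± 3.35) and Il1a (28.2 ± 7.15) again led, while Il18bp reached 17.2 ± 4.43 CPM per kb and stood at rank 5 of 10. Brain tissue had another order. Il18 led with 7.58 ± 0.783 CPM per kb in untreated tissue (n = 4), above Il18bp at 1.57 ± 0.169, with no overlap, and Il1a was at 0.368 ± 0.168. Both microglia tables came from the same library kit with different sequencing, and the tissue from another kit, so levels across the tables are a description.

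**Figure D1:**
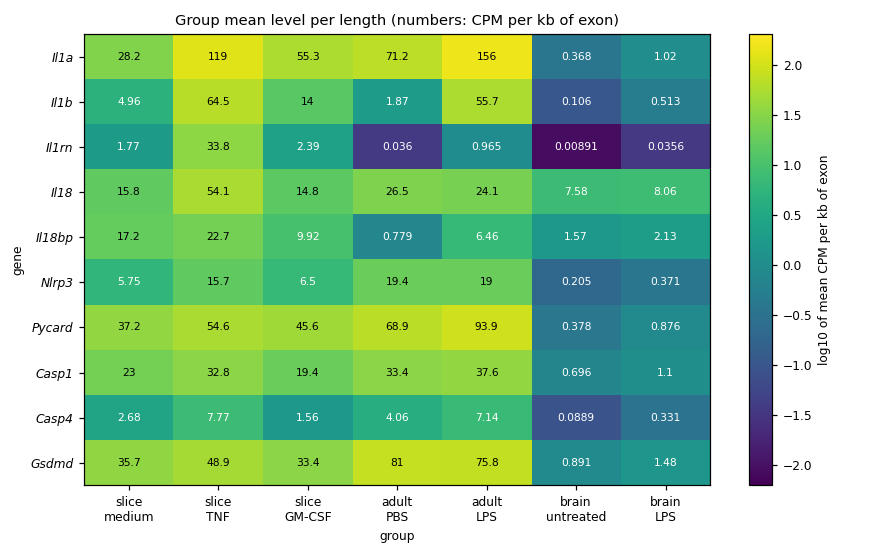
Mean level of each gene (rows) in each of the 7 groups (columns), in CPM per kb of merged exon; color gives its log10. Gsdmd, Il1a and Pycard lead in PBS adult microglia, and Il18 leads in both brain tissue groups at 7.58 and 8.06.

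TNF raised 6 of the 10 genes in slice microglia, at an edgeR adjusted p below 0.05 and a fold change above 1.5, and lowered 0. Of all 11313 genes tested, 9.1% rose and 11.7% fell by the same rule. The risers were the 3 cytokines, the receptor antagonist, the sensor and the LPS-sensing caspase, and for each of them all 11 TNF libraries lay above all 9 medium libraries. The antagonist Il1rn changed most. Its level was 4.56 to 19.4 CPM (median 7.64) in medium and 119 to 246 CPM (median 191) with TNF, and the groups did not overlap. The log2 fold change was 4.26 ± 0.24 (SE), or 19.1-fold (edgeR quasi-likelihood test, adjusted p = 3.24e-16).

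Il1b, the cytokine that caspase-1 matures, went from 5.05 to 18.8 CPM (median 8.91) in medium to 77.3 to 181 CPM (median 132) with TNF. This was a log2 fold change of 3.70 ± 0.22 (edgeR adjusted p = 5.4e-16). Il1a, already well expressed in medium at 39.3 to 75.4 CPM, reached 174 to 295 CPM, a log2 fold change of 2.07 ± 0.12 (edgeR adjusted p = 1.17e-16). Both IL-1 cytokines thus rose, Il1b by 13-fold and Il1a by 4.2-fold. Il18 rose from 12.01 to 25.3 CPM (median 15.2) to 42.3 to 69.0 CPM (median 56.4), by 1.77 ± 0.14 on the log2 scale (edgeR adjusted p = 7.84e-13).

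Among the inflammasome parts, the sensor Nlrp3 rose from 19.4 to 30.0 CPM to 48.3 to 78.7 CPM, with a log2 fold change of 1.45 ± 0.11 (edgeR adjusted p = 1.11e-13). Casp4 rose from 6.82 to 15.1 CPM to 23.1 to 37.7 CPM, with a log2 fold change of 1.54 ± 0.19 (edgeR adjusted p = 4.69e-08). The adaptor, the effector caspase and the pore former changed less. Pycard differed by 0.56 ± 0.10 on the log2 scale (edgeR adjusted p = 2.27e-05), Casp1 by 0.51 ± 0.15 (0.00632) and Gsdmd by 0.45 ± 0.10 (0.000258). These 3 passed the p limit and stayed under the 1.5-fold limit. Pycard with TNF was at 149 to 157 CPM in the 3 libraries of code 2B and at 207 to 265 CPM in the other 8, while the 3 medium libraries of that code held 121 to 143 CPM. Its log2 fold change was 0.78 within codes 1A and 1B, where it was called, and 0.29 within 2A and 2B (edgeR adjusted p = 0.176). With the code as a covariate it was 0.51 ± 0.07 (edgeR adjusted p = 9.75e-07), and the count of genes called stayed at 6. Il18bp, the IL-18 binding protein, had a log2 fold change of 0.40 ± 0.17 (edgeR adjusted p = 0.0561) and did not pass. The TNF libraries of each of these 4 genes overlapped the medium libraries. The median of the 10 log2 fold changes was 1.49, against -0.03 for all genes tested.

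**Figure D2:**
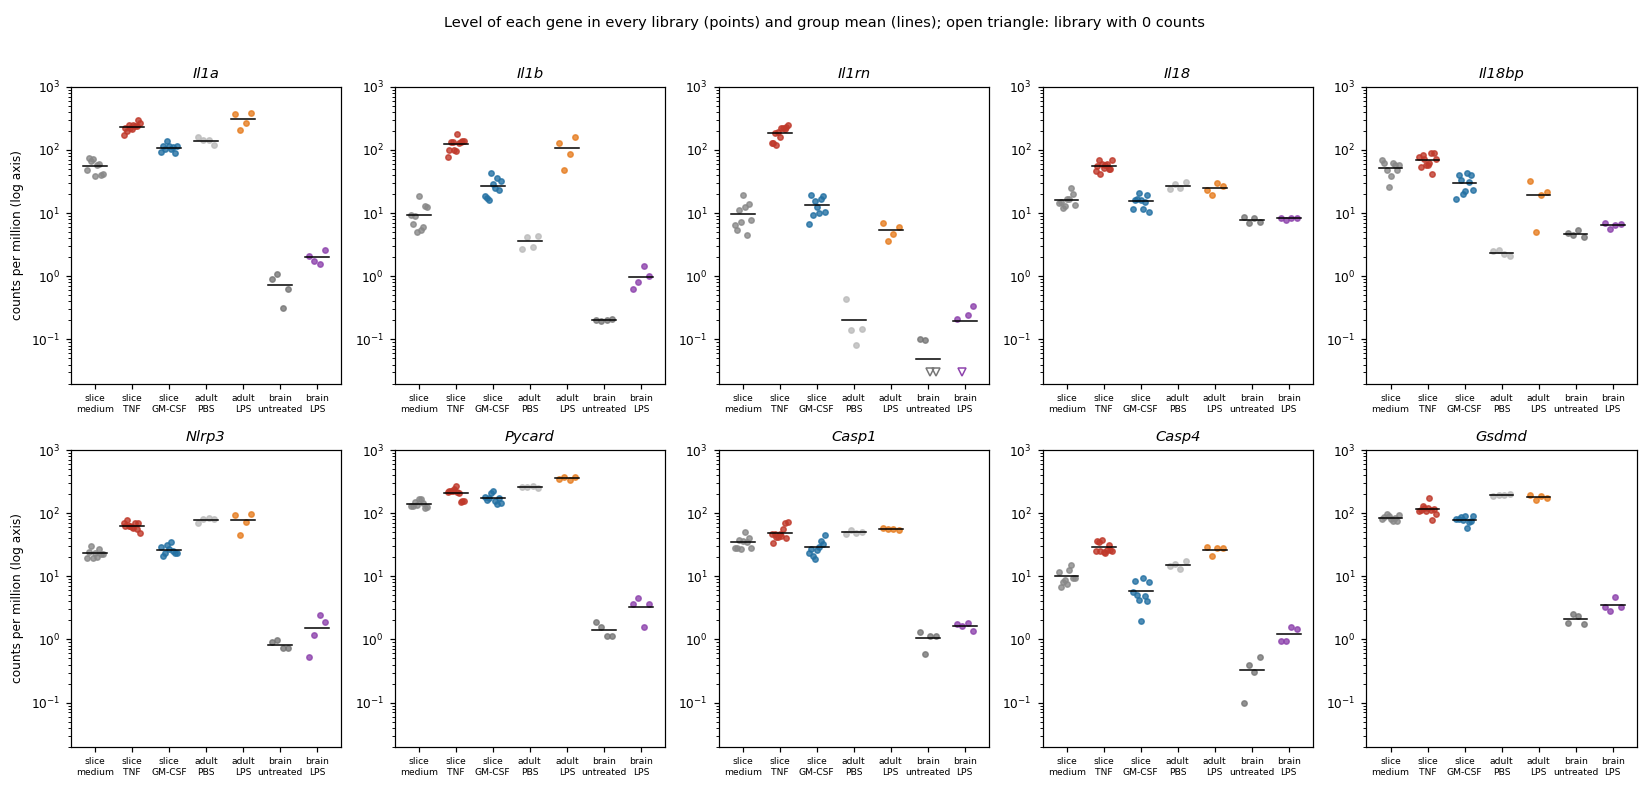
Level of each of the 10 genes in every library (points, CPM on a log axis) and the group mean (lines) in the 7 groups; open triangles are libraries with 0 counts. Il1rn sits at 119 to 246 CPM in the 11 TNF libraries, above all other groups, and brain tissue holds the lowest levels of Il1a, Il1b and Casp4.

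Markers of other cells were read beside these changes. The summed level of 6 neutrophil markers was 0.832 to 15.6 CPM in medium and 3.56 to 116 CPM with TNF, and 3.19 to 40.6 CPM with GM-CSF. Of the 6, Ly6g had 0 counts in every slice library, and most of the sum was S100a8 and S100a9. The median of Mmp8 was 0.289 CPM in medium, 1.72 with TNF and 2.04 with GM-CSF. Ngp and Camp had 0 counts in medium, 14 and 15 in total with TNF, and 70 and 0 with GM-CSF. The summed level of 5 border macrophage markers was 90.5 to 214 CPM in medium and 35.1 to 109 CPM with TNF, and 134 to 299 with GM-CSF. Mrc1 and Pf4 made up most of that sum, and with GM-CSF their medians were above those in medium. The GM-CSF medians of Cd163 (1.23 against 3.46 CPM), Lyve1 (0.666 against 2.32) and Cbr2 (0 against 1.3) were lower. The part of these cells in the changes was not tested.

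GM-CSF acted on a smaller set. It raised 2 of the 10 genes and lowered 2, with 4.84% and 5.96% of the 11313 genes tested higher and lower by the same rule. Il1b lay between 16.2 and 42.5 CPM (median 25.2), above all medium libraries in 6 of 9 GM-CSF libraries, with a log2 fold change of 1.49 ± 0.22 (edgeR adjusted p = 1.67e-06). Il1a lay between 90.1 and 136 CPM, above all medium libraries in 9 of 9, with a log2 fold change of 0.97 ± 0.12 (edgeR adjusted p = 6.08e-08). Il18bp fell from a median of 56.8 CPM to 31.6 CPM, by 0.80 ± 0.18 on the log2 scale (edgeR adjusted p = 0.000743). Casp4 fell from a median of 9.51 CPM to 5.15 CPM, with 15 to 71 counts per GM-CSF library, by 0.78 ± 0.21 (edgeR adjusted p = 0.0042). For both of these the groups overlapped, 4 and 6 of 9 GM-CSF libraries lying below all medium libraries. The Casp4 call was lost within codes 1A and 1B alone (log2 fold change -0.58, edgeR adjusted p = 0.125) and within 2A and 2B alone (-0.91, 0.0755).

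The remaining 6 genes did not pass with GM-CSF. Il1rn lay between 6.81 and 19.1 CPM, inside the medium range in every library, with a log2 fold change of 0.44 ± 0.24 (edgeR adjusted p = 0.187). Pycard had 0.30 ± 0.10 (0.0323, under the fold limit), Nlrp3 0.17 ± 0.11 (0.267), Il18 -0.09 ± 0.14 (0.7), Gsdmd -0.10 ± 0.10 (0.551) and Casp1 -0.25 ± 0.16 (0.278). The median of the 10 log2 fold changes was 0.04.

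Set directly against each other, TNF libraries were higher than GM-CSF libraries for 8 of the 10 genes and lower for 0, where 8.25% and 7.96% of all genes tested were higher and lower. This comparison shares its libraries with the previous ones. Il1rn differed most, by 3.82 ± 0.23 on the log2 scale or 14.1-fold (edgeR adjusted p = 2.67e-15). Casp4 (2.32 ± 0.20, adjusted p = 1.49e-11) and Il1b (2.21 ± 0.20, adjusted p = 3.18e-11) followed. Il18 (1.87 ± 0.14), Nlrp3 (1.27 ± 0.10), Il18bp (1.19 ± 0.17), Il1a (1.10 ± 0.11) and Casp1 (0.76 ± 0.15) also passed. Gsdmd (0.55 ± 0.10, adjusted p = 2.6e-05) and Pycard (0.26 ± 0.10, adjusted p = 0.0432) stayed under the fold limit.

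**Figure D3:**
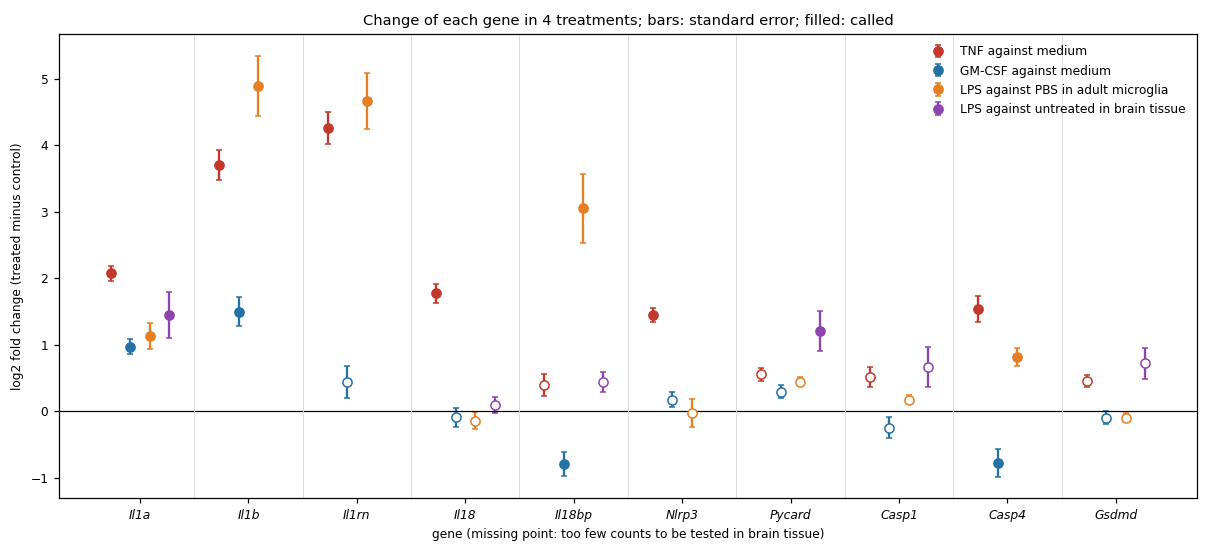
Log2 fold change (treated minus control) of each gene in the 4 treatments with its standard error; filled points were called (adjusted p below 0.05 and more than 1.5-fold). Il1b and Il1rn show the largest values with TNF (3.70 and 4.26) and with LPS in adult microglia (4.89 and 4.66), and 4 genes have no point in brain tissue because their counts were too low.

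LPS in vivo raised 5 of the 10 genes in adult microglia and lowered 0, where 14.4% and 13% of the 12987 genes tested were higher and lower. The risers were both IL-1 cytokines, both antagonists and Casp4, and each was higher in 4 of 4 LPS libraries than in any PBS library. Il1b was at 2.72, 4.23, 2.90 and 4.39 CPM in the PBS libraries and at 130, 49.0, 86.1 and 160 CPM in the LPS libraries. The groups were far apart, and the second LPS library was the lowest of its group. The log2 fold change was 4.89 ± 0.45, or 29.7-fold (edgeR adjusted p = 0.000101). Il1rn was scarce in PBS, with 1 to 6 counts per library, at 0.430, 0.144, 0.0804 and 0.144 CPM. In LPS it was at 6.99, 3.59, 4.75 and 6.03 CPM, with 42 to 96 counts and a log2 fold change of 4.66 ± 0.42 (edgeR adjusted p = 4.08e-06).

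Il18bp was at 2.51, 2.58, 2.25 and 2.09 CPM in PBS and at 32.05, 5.04, 19.5 and 21.6 CPM in LPS. The second LPS library was still above every PBS library but well under the next lowest. The log2 fold change was 3.05 ± 0.52 (edgeR adjusted p = 0.00159). Il1a was at 159, 143, 142 and 119 CPM in PBS and at 372, 209, 271 and 380 CPM in LPS, with a log2 fold change of 1.13 ± 0.19 (edgeR adjusted p = 0.00112). Casp4 was at 14.4, 15.8, 12.9 and 17.2 CPM in PBS and at 28.8, 20.8, 28.4 and 28.0 CPM in LPS, with a log2 fold change of 0.81 ± 0.13 (edgeR adjusted p = 0.000287). Leaving out any single library kept the count at 5.

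The sensor Nlrp3 did not pass. It was at 69.9, 81.7, 83.2 and 80.0 CPM in PBS and at 93.2, 45.9, 71.4 and 97.7 CPM in LPS, with a log2 fold change of -0.03 ± 0.21 (edgeR adjusted p = 0.923). Its LPS libraries lay on both sides of the PBS range, and without the second LPS library the value was 0.15 (edgeR adjusted p = 0.23). Pycard was higher in 4 of 4 libraries, at 338 to 377 CPM against 250 to 274, with a log2 fold change of 0.45 ± 0.06 that stayed under the fold limit (edgeR adjusted p = 0.000122). Casp1 had 0.17 ± 0.07 (0.0536), Il18 -0.14 ± 0.13 (0.406) and Gsdmd -0.10 ± 0.07 (0.273). In these libraries the neutrophil marker sum was higher in PBS, at 32.6 to 69.4 CPM, than in LPS, at 1.61 to 7.79 CPM. Ly6g was near the floor in both groups, with 4 counts in total in PBS and 0 in LPS. The border macrophage sum was 8.93 to 15.3 CPM in PBS and 22.3 to 27.5 CPM in LPS. Mrc1 (554 to 821 counts in total), Cbr2 (28 to 409) and Pf4 (10 to 22) had more counts with LPS. Cd163 (14 to 5) and Lyve1 (3 to 2) had fewer. The part of these cells in the changes was not tested.

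In brain tissue most of these genes had few counts, the exceptions being Il18, with 67 to 87 per library, and Il18bp, with 40 to 66. Of the 10, 6 had enough counts to be tested, 2 rose with LPS and 0 fell, where 2.63% of the 15083 genes tested rose. Il1a had 9, 11, 3 and 6 counts in the untreated libraries and 20, 15, 13 and 23 in the LPS libraries. The groups did not overlap, and the log2 fold change was 1.44 ± 0.34 (edgeR adjusted p = 0.0125). Pycard had 19, 16, 11 and 11 counts against 35, 38, 13 and 32, with a log2 fold change of 1.21 ± 0.31 (edgeR adjusted p = 0.0187). The third LPS library, with 1.57 CPM, lay inside the untreated range of 1.14 to 1.91 CPM. It had the lowest microglial marker sum, 226 CPM, and the fewest Il1a counts of the LPS libraries. The same library had the most counts of Il1b (12) and Nlrp3 (20). The part of the marker sum in these levels was not tested. Both calls were lost without the fourth LPS library (edgeR adjusted p = 0.0544 for Il1a and 0.0591 for Pycard). The Pycard call was also lost without the second LPS library or without the second, the third or the fourth untreated library (edgeR adjusted p = 0.0507 to 0.0713).

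Il18 (log2 fold change 0.09 ± 0.12, edgeR adjusted p = 0.722), Il18bp (0.44 ± 0.15, 0.0717), Casp1 (0.66 ± 0.30, 0.193) and Gsdmd (0.72 ± 0.23, 0.0606) did not pass. The LPS libraries of Il18bp, Casp1 and Gsdmd were nevertheless above all untreated libraries in 4 of 4. The other 4 genes were removed by the filter on low counts. Il1b had 2 counts in each untreated library and 6, 7, 12 and 9 with LPS. Casp4 had 1, 4, 3 and 5 counts against 9, 8, 13 and 13. Without the filter, where 1.76% of 26560 genes were higher, Il1b (log2 fold change 2.18 ± 0.60, edgeR adjusted p = 0.00904) and Casp4 (1.84 ± 0.51, edgeR adjusted p = 0.0099) passed. Nlrp3 (9, 10, 7 and 7 counts against 5, 10, 20 and 17) and Il1rn (1, 1, 0 and 0 against 2, 0, 2 and 3) did not, at adjusted p = 0.271 and 0.499. A change of Il1rn was not detectable at this depth. The sum of the 5 neutrophil markers listed in this table was 0.501 to 1.03 CPM in untreated and 2.95 to 7.17 CPM in LPS tissue, and that of border macrophage markers 3.21 to 4.56 and 6.95 to 8.59 CPM. Of the latter, Cd163 (81 to 134 counts in total), Lyve1 (21 to 61) and Cbr2 (34 to 54) had more counts with LPS. Pf4 had fewer (20 to 11), and Mrc1 had 0 counts in both groups. The part of these cells in the changes was not tested.

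The LPS effects of the 2 in vivo settings were compared in 1 model over 16 libraries, as the change in adult microglia minus the change in brain tissue. The difference was called for 3 of the 10 genes, against 19.7% of the 16676 genes tested. Il18bp differed by 2.60 ± 0.56 on the log2 scale (edgeR adjusted p = 0.00215), rising by 3.05 in microglia and by 0.44 in tissue. Pycard (-0.77 ± 0.27, adjusted p = 0.0337) and Gsdmd (-0.82 ± 0.19, adjusted p = 0.0026) had the larger change in tissue, although the Gsdmd change passed in neither setting alone (-0.10 and 0.72). The Pycard call was lost without any 1 of 6 brain libraries. For Il1b (2.69 ± 1.62, adjusted p = 0.262), Il1rn (2.88 ± 1.49, adjusted p = 0.184) and Casp4 (-1.06 ± 0.43, adjusted p = 0.0601) no difference was shown by this test. Il1b passed with DESeq2 (2.60, adjusted p = 0.00152), and Casp4 passed without the third PBS library (adjusted p = 0.0472) or the fourth untreated tissue library (0.0385). The control treatment, the library kit and the mix of cells differ between the settings and cannot be told apart from the setting.

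The balance of each cytokine with its antagonist was then read within each library, as the log2 ratio of counts with 0.5 added to both. The question was whether antagonist and cytokine changed in proportion. With medium the Il1rn to Il1b ratio was 0.04 ± 0.60 (SD, n = 9). TNF moved it to 0.60 ± 0.31 (n = 11), toward the antagonist, a difference of 0.56 (exact two-sided permutation p = 0.016, adjusted p = 0.032 over 8 ratio tests). GM-CSF moved it to -1.01 ± 0.58 (n = 9), toward the cytokine, a difference of -1.05 (exact permutation p = 0.00226, adjusted p = 0.00905). All 11 TNF libraries (-0.149 to 0.916) lay inside the medium range of -0.68 to 1.23, while 7 of 9 GM-CSF libraries lay below it. The mean ratio thus moved in opposite directions from medium, with TNF only within the spread of the medium libraries. Within codes 1A and 1B, and within 2A and 2B, the TNF difference was 0.53 and 0.61, and the GM-CSF difference -0.89 and -1.18, and none of these passed with the fewer libraries.

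LPS raised both transcripts in adult microglia and left their ratio at -4.21 ± 0.40 against -4.09 ± 1.02 in PBS (n = 4 each). The difference of -0.12 did not pass (exact permutation p = 0.914), and it rests on few PBS counts of Il1rn, the first PBS library standing at -2.57 and the others between -4.62 and -4.57. In brain tissue the ratio was -1.53 ± 0.92 in untreated and -2.26 ± 1.18 in LPS tissue (exact permutation p = 0.457), from at most 3 counts of Il1rn per library.

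For Il18bp and Il18 the slice and in vivo treatments pointed opposite ways. The ratio was 1.66 ± 0.47 in medium, 0.28 ± 0.38 with TNF and 0.94 ± 0.54 with GM-CSF. The TNF difference of -1.38 placed 11 of 11 libraries below all medium libraries (exact permutation p = 5.95e-06, the smallest these group sizes allow, adjusted p = 4.76e-05), and the GM-CSF difference of -0.72 had an exact permutation p of 0.00724 (adjusted p = 0.0193). In adult microglia the ratio went from -3.52 ± 0.25 to -0.60 ± 1.02, a difference of 2.92. In brain tissue it went from -0.71 ± 0.10 to -0.37 ± 0.08, a difference of 0.35. Each had an exact permutation p of 0.0286, the smallest possible with 4 against 4 (adjusted p = 0.0381), and the ratio was higher in 4 of 4 LPS libraries. The call in adult microglia was lost without any 1 of the 4 PBS libraries (exact permutation test, adjusted p = 0.0762), and that in tissue was kept without any single library. The microglial difference itself stayed at 2.80 to 3.00 without a PBS library. With so few libraries the exact p moves in coarse steps, so a lost call does not mean a smaller difference. With TNF, Il18 rose and Il18bp did not pass, and with LPS in adult microglia Il18bp rose and Il18 did not pass.

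**Figure D4:**
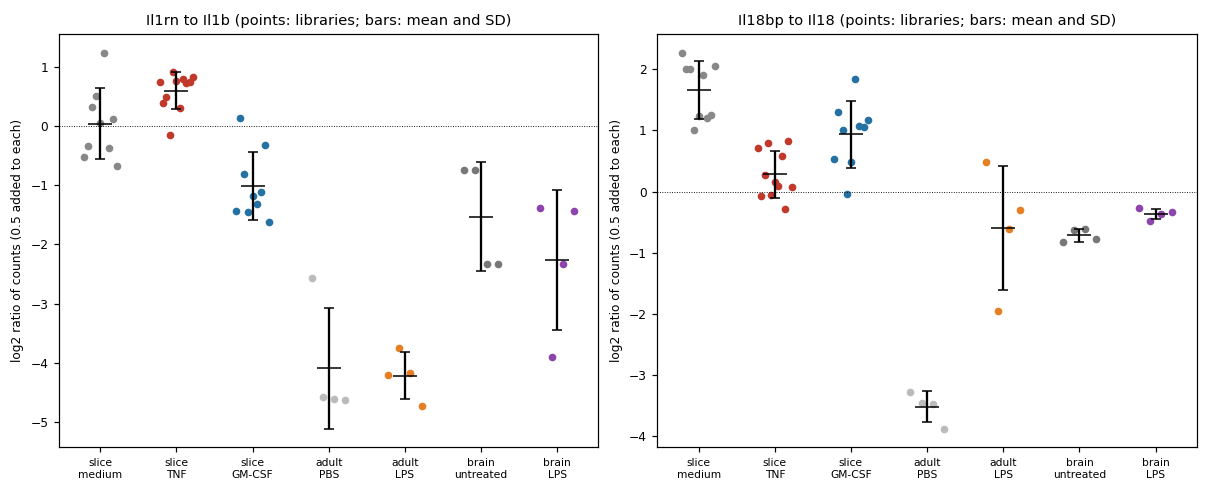
Log2 ratio of Il1rn to Il1b counts (left) and of Il18bp to Il18 counts (right) in every library of the 7 groups, with mean and SD; the dotted line marks equal counts. The Il18bp to Il18 ratio falls from 1.66 in medium to 0.28 with TNF and rises from -3.52 to -0.60 with LPS in adult microglia.

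The surrounding pathway was read from a list of 43 receptors, signaling parts, other family cytokines, sensors and effectors. In slices 29 could be tested. TNF raised 6 of them and lowered 1, where 9.1% and 11.7% of all genes tested rose and fell, and the median log2 fold change was 0.22. The largest changes were Irak3, an inhibitor of the receptor pathway (1.73 ± 0.16, edgeR adjusted p = 7.16e-11), Sigirr, an inhibitory receptor (-1.17 ± 0.34, 0.00605), and Myd88, the receptor adaptor (1.17 ± 0.10, 1.04e-11). Naip2, a sensor partner of another inflammasome (0.76 ± 0.12), and Il1rap, the shared receptor chain (0.76 ± 0.16), followed. Sigirr had 3 to 60 counts per TNF library, and its call was lost within codes 2A and 2B alone. GM-CSF raised 2 of 29 and lowered 0, with a median of 0.07, and 2 of 29 is near the 4.84% of all genes that rose (5.96% fell). The 2 were Il18rap, the accessory chain of the IL-18 receptor (1.85 ± 0.49, edgeR adjusted p = 0.00418), and Il1rl1, the receptor of IL-33 (1.27 ± 0.31, 0.00202), each called in 1 of the 2 code pairs alone. TNF libraries exceeded GM-CSF libraries for 6 of 29 and were lower for 2, where 8.25% and 7.96% of all genes were higher and lower. Among the higher were Irak3 (1.59 ± 0.16), Myd88 (1.19 ± 0.10) and Ninj1, which acts in membrane rupture (1.02 ± 0.08), and the lower were Il1rl1 (-1.57 ± 0.30) and Il18rap (-1.30 ± 0.45).

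In adult microglia LPS raised 7 and lowered 4 of 30 pathway genes tested, with a median log2 fold change of -0.07. Of all genes tested 14.4% rose and 13% fell, so the share lowered was near that of all genes. The decoy receptor Il1r2, which binds IL-1 without signaling, changed most. It had 12, 6, 4 and 7 counts in PBS and 5732, 87, 4132 and 4989 in LPS. These were 0.322 to 0.860 CPM against 417, 7.44, 317 and 367 CPM, so the second LPS library held a small share of the level of the other three and still lay above all PBS libraries. The log2 fold change was 8.99 ± 1.55 (edgeR adjusted p = 0.00261), and 9.40 ± 0.17 without that library (edgeR adjusted p = 2.46e-12). Il18rap rose from 0.861 to 3.51 CPM to 24.3 to 39.9 CPM (3.72 ± 0.32, edgeR adjusted p = 1.19e-05), and here the second LPS library did not stand apart in the fit (3.76 without it). Irak3 rose by 0.98 ± 0.24. Txnip, a binding partner of NLRP3 (-1.14 ± 0.09), and Casp12, an inflammatory caspase (-1.13 ± 0.30), fell. In slices Il1r2 had log2 fold changes of 0.67 ± 0.47 with TNF and 0.92 ± 0.49 with GM-CSF, and neither passed (edgeR adjusted p = 0.269 and 0.175).

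In brain tissue 26 pathway genes could be tested, 2 rose and 1 fell, where 2.63% and 0.55% of all genes tested rose and fell, with a median of 0.20. Naip2 rose by 1.29 ± 0.28 (edgeR adjusted p = 0.00624) and Casp8, an apoptotic caspase, by 0.80 ± 0.22 (0.0299). Il33, an alarmin of the family that glial cells other than microglia express, fell from 47.2 to 52.6 CPM to 16.3 to 32.9 CPM, by 0.90 ± 0.18 (0.0197), with no overlap between groups. It had at most 8 counts in any microglial library. The Il33 and Casp8 calls were lost when single libraries were left out, at edgeR adjusted p up to 0.0601 and 0.121.

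Variation of the genes within the slice groups was read pair by pair. Over the 29 slice libraries, with group means removed, the Pearson correlation between log2 levels of the 45 gene pairs ran from -0.40 (Casp1 with Gsdmd) to 0.52 (Il1b with Il1rn). The genes most like Il1b were Oas3 (0.73), Bbip1 (0.69) and Nap1l1 (0.69), and those most like Il1rn were Ttc32 (0.67), Ndufaf1 (0.65) and Cyb5a (0.65). Nlrp3 was nearest to Dusp28 (0.63), Setd4 (0.60) and Gtpbp6 (0.60), and Casp4 to Wdtc1 (0.67), Zfat (0.65) and Trpm2 (0.63). These values describe libraries that share depth and preparation and are given without a test. No other member was among the 3 nearest genes of any of the 4, which were picked as the extremes of all genes tested. Noise in low counts weakens such correlations, so low values do not show that the genes varied apart.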

How the data were processed

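RNA-seq libraries of 45 samples in 7 groups were analysed. The authors deposited whole-number read counts per gene for slice microglia, and the submitters' notes name STAR 2.7.0a, Subread 1.6.4 and featureCounts for these samples and the build mm10 for all. For adult microglia and brain tissue the deposited values are expected counts (estimated counts that need not be whole). Their aligner and counter, the annotation and the strand setting were not given by the sources read here. Expected counts were rounded, and 92 rows without a mouse gene, all at 0, were dropped from the brain table. R 4.3.3 with edgeR 4.0.16 was used: filterByExpr (count minimum 10, total 15), TMM factors and the quasi-likelihood test, with Benjamini-Hochberg adjustment over all genes tested. A gene was called at adjusted p below 0.05 and a fold change above 1.5. The slice groups shared 1 fit, and the effects of LPS in microglia and tissue were compared by an interaction term. Ratios were compared by exact two-sided permutation tests with adjustment over 8 tests. Alternatives were DESeq2 1.42.0, other scaling, no filter, a replicate block, title codes and leaving out libraries. The edgeR comparisons of TNF with medium, and of LPS in adult microglia and in brain tissue, were tested on simulated data. The GM-CSF contrasts, the interaction fit and DESeq2 were not. Per the study's methods, the in vivo libraries came from independent mice and the slice libraries from pooled, separately treated slices of several experiments. The labels do not tie a library to a mouse or an experiment. Exon lengths, overlaps and positions came from GENCODE M21 (GRCm38), and promoters from RefSeq. Genes named from the pathway list were the called ones with the largest change, up to 5 per comparison, and like genes were the 3 with the highest correlation for Il1b, Il1rn, Nlrp3 and Casp4. The members and lists were chosen with earlier results of these data known.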

Additional observations from a re-analysis of the deposited data

Results flagged for a closer look

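Casp4 in the second LPS library of adult microglia, at 20.8 CPM, and Il18 in the second LPS library of brain tissue, at 7.88 CPM, lay apart below the other libraries of their groups. The Il1rn to Il1b log2 ratio of the first PBS library of adult microglia, at -2.57, and Il1rl1 in the third GM-CSF library, at 22.5 CPM, lay apart above theirs. These were 4 values from 100 groups of 4 to 10 libraries tested for a sample far from the others, where chance marks about 1 in 20. The change with LPS differed between adult microglia and brain tissue for Il18bp (2.60 on the log2 scale, microglia minus tissue), Pycard (-0.77) and Gsdmd (-0.82) in the interaction test.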

How the results depend on the processing

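Of 79 recomputed counts of members called, 73 stayed within 1.5 times the reported value. In brain tissue the count of 2 became 4 without the low-count filter and 4 with DESeq2, and ran from 0 to 2 when single libraries were left out. Low-abundance genes enter those wider tests. Among 678 recomputed log2 fold changes of members, 5 changed sign, all of genes that were not called: with GM-CSF, Il18 became 0.012 on total counts and 0.25 within codes 1A and 1B, and Gsdmd became 0.01 on total counts, and with LPS in adult microglia Nlrp3 ran from -0.16 to 0.15 over left-out libraries. Within codes 1A and 1B the Il1rn to Il1b difference was 0.53 for TNF and -0.89 for GM-CSF, and the Il18bp to Il18 difference with GM-CSF -1.12, and none passed. Within codes 2A and 2B those were 0.61, -1.18 and -0.40, and the Il18bp to Il18 difference with TNF was -1.27, none passing. With libraries left out, the adult microglia difference ran from -0.30 to 0.39 for Il1rn to Il1b and from 2.56 to 3.37 for Il18bp to Il18, whose call was lost without any 1 PBS library (adjusted p = 0.0762, exact permutation test) and kept without any 1 LPS library.

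Deviations from the group means were weakly correlated between same-numbered slice libraries. The values were 0.04 to 0.18 for TNF with medium and 0.02 to 0.11 for GM-CSF with medium. The own number was the best match in 4 of 9 and 2 of 9 of these pairs. In the other comparisons the correlations ran from -0.08 to 0.13. Replicate numbers were not taken as pairs in the main fits. With the replicate block the counts were 7 for TNF, where Pycard joined, 4 for GM-CSF, 8 for TNF against GM-CSF, 5 for adult microglia and 2 for brain tissue. For the pathway list the same alternatives were added after the data were seen, and 49 of 53 counts stayed within 1.5 times the reported value. In brain tissue 4 of the 10 genes had too few counts to be tested, with totals of 8199863 to 10368578 counts per library against 5973364 to 9165485 in the slices.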
